A study of Homo sapiens with 4 samples.

Results

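Mitochondrial ribosomal protein genes were taken as all rows of the 4 count tables whose gene name begins with MRPL or MRPS followed by a digit. The rule found 76 of 20812 genes, 48 named MRPL for the large subunit and 28 named MRPS for the small subunit. Of these, 3 are pseudogene transcripts (MRPL42P5, MRPL45P2 and MRPS31P3), which leaves 46 MRPL and 27 MRPS coding genes. The cells were labelled HCT116, a human colon cancer cell line, either wild type or hIDO1 overexpressing. The libraries labelled as the latter are here called the IDO1 line or IDO1 cells. Each was kept for 24 h with 1 mM indole, a bacterial product of tryptophan, or with DMF, the control treatment, called "without indole" where levels are listed. The overexpressed enzyme, IDO1, opens the tryptophan ring. The sources used here do not give whether the IDO1 line is 1 clone or a pool.

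The mitochondrial ribosome translates the few messages encoded by mitochondrial DNA, all of which specify subunits of the respiratory chain and ATP synthase. Its RNAs come from the mitochondrial genome, whereas all its proteins are encoded in the nucleus, made in the cytosol and imported. Some of the proteins have bacterial homologs and others are found only in mitochondria. Proliferating cancer cells keep this machinery active.

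Messenger RNA was read from 1 short PCR target per gene. Each group is 1 library here, although the design text names 2 replicates, so no p-value is given for any pair of groups. Totals were 18283862 to 22736172 reads, and 14892 to 15505 genes had reads. Levels are CPM, the reads of a gene scaled to a common library size by TMM, and a difference is a ratio of CPM with an exact 95% Clopper-Pearson interval in brackets. These intervals cover the counting of reads only. They narrow as reads rise, so a count of intervals clear of 1 depends on level as well as on ratio. Several PCR reads can stem from 1 molecule and no molecular identifiers are named in the labels. The intervals may thus be too narrow even for counting error. The overexpressed gene followed the labels, with IDO1 at 0 reads (DMF) and 2 reads (indole) for wild type and 3451 and 2440 for IDO1 cells. The 8 epithelial markers summed to 77490 to 109823 reads per library, nearly all from EPCAM, CDH1, KRT8, KRT18, KRT19 and CLDN7, while CEACAM5 and VIL1, markers of differentiated intestinal cells, had 0 to 2. Markers of leukocytes summed to 12 to 26 reads and of endothelium to 72 to 107, and those of fibroblasts to 1419 to 1879, nearly all COL1A1. A list of 7 genes typical of embryonic kidney lines or neurons summed to 0.658 CPM (DMF) and 0.362 CPM (indole) for wild type, with 4 and 6 genes at 0, but to 49.4 and 48.5 CPM for IDO1 cells, with 0 genes at 0. A further check for mixed-up samples put 2 of the 4 libraries apart from the wild type control in genes that libraries of 1 cell line should share. The identity and purity of the cells labelled as the IDO1 line are therefore in doubt. In every comparison of the lines below, IDO1 overexpression and a difference in the cells themselves cannot be told apart.

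All 76 members had reads in every library. In wild type with DMF their levels ran from 0.376 to 363 CPM with a median of 51.6, against a median of 13.9 CPM over all genes with reads there. Together they took 0.603% of all reads without indole (0.600 to 0.606) and 0.485% with it (0.482 to 0.488) in wild type. For IDO1 cells the shares were 0.604% (0.601 to 0.607) and 0.623% (0.619 to 0.626). Wild type with indole thus held the smallest share, and the other 3 libraries lay close together. On the scaled level the members summed to 6425, 4585, 6021 and 6205 CPM in the same order. The MRPL genes summed to 4201, 2910, 3919 and 4008 CPM and the MRPS genes to 2224, 1675, 2102 and 2197 CPM. Because each gene is read from its own amplicon, levels of different genes were not ranked against each other.

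The response of wild type cells to indole was compared first. Nearly all members were lower with indole, by a modest amount. In RNA from whole cultures, fewer cells with a message and less of it per cell cannot be told apart. Of 68 members with at least 10 CPM in 1 of the 2 libraries, 65 had a log2 ratio below 0 and 3 above, where the shares over all 8679 genes compared were 53.8% and 46.2%. The median log2 ratio of CPM plus 1 was -0.43 over the members, with quartiles of -0.56 and -0.28, against -0.04 over all genes. At least 1.5-fold lower were 15 members and at least 1.5-fold higher 0, where 9.72% and 7.09% of all genes were. At least 2-fold lower on this scale was 1 member, MRPS18B, against 1.54% of all genes. These counts use CPM plus 1, which understates folds of low genes, while the folds printed for single genes add nothing to the CPM, so that MRPL50 is 2.03-fold lower by the latter and was not counted. Counting intervals lay wholly below 1 for 61 members and wholly above 1 for 1, where the shares over all genes were 40.9% and 32.4%.

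How many members pass the 1.5-fold mark depended on the scaling. With library totals in place of TMM, 4 members were at least 1.5-fold lower and 0 higher, and the shares of all genes became 4.86% lower and 14.1% higher. The median of all genes then moved to 0.14 and that of the members to -0.26. Relative to the median of all genes, the members lay at -0.39 with TMM and at -0.40 with totals.

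**Figure D1:**
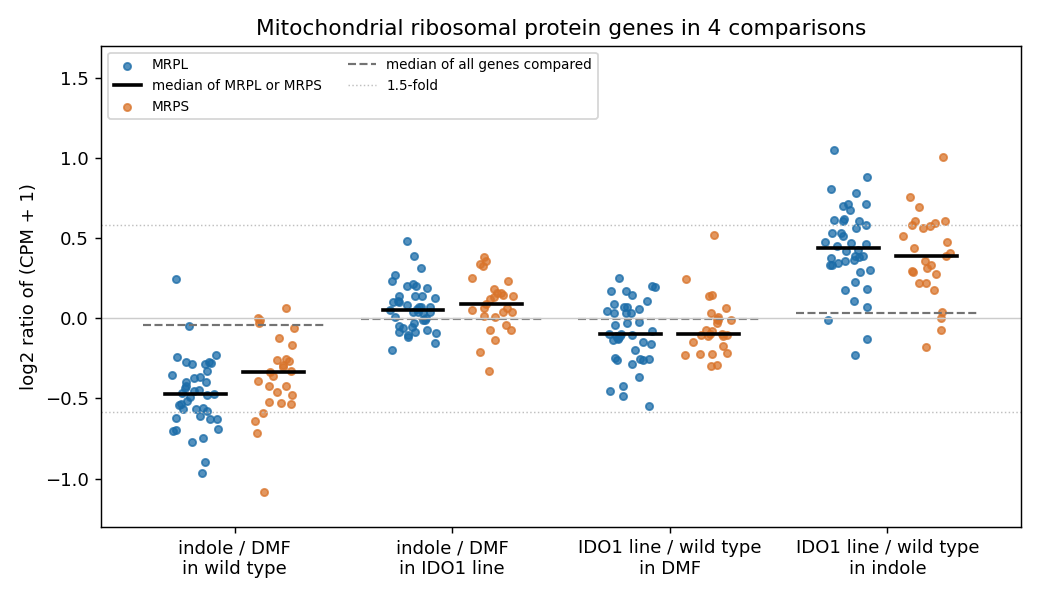
Log2 ratio of CPM plus 1 for each MRPL and MRPS gene compared, in the 4 pairwise comparisons (1 library against 1). Black bars are medians of MRPL and of MRPS, dashed lines the median of all genes and dotted lines 1.5-fold in either direction. In wild type 65 of 68 points lie below 0, in the IDO1 line the points scatter about 0.06, and in indole 64 of 69 are higher in the IDO1 line.

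In wild type the median was -0.47 for MRPL genes, with 40 of 41 below 0 and 11 at least 1.5-fold lower. For MRPS genes it was -0.34, with 25 of 27 below 0 and 4 at least 1.5-fold lower. These 27 include the pseudogene transcript MRPS31P3, as do the counts over all members, but not MRPS36, which was under 10 CPM. The names and the structure differ for a few proteins, since MRPS30 and MRPS18A sit in the large subunit. By structure the medians were -0.47 over 43 large-subunit genes and -0.35 over 24 small-subunit genes. Genes with a bacterial homolog had -0.47 over 40 and mitochondria-specific ones -0.40 over 27. MRPS18A and MRPS18B, though relatives of bacterial protein S18, were counted as mitochondria-specific. The ranges of both divisions overlapped widely, and no test of either difference could be made with 1 library a group.

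The lowest ratio belonged to MRPS18B, 1 of 3 human relatives of bacterial protein S18. It had 162 CPM without and 76.0 with indole in wild type, and 139 without and 154 with indole in IDO1 cells. Wild type with indole stood alone below the other 3 libraries, and MRPS18B was 2.13-fold lower (2.01 to 2.27) with indole there. Its relative MRPS18A had 90.0 CPM without and 73.3 with indole in wild type, and 89.2 without and 105 with indole in IDO1 cells, and was 1.23-fold lower (1.15 to 1.32) with indole in wild type. MRPS18C, the relative kept in the small subunit's S18 position, had 52.6 CPM without and 37.4 with indole in wild type, and 51.5 without and 49.9 with indole in IDO1 cells, and was 1.41-fold lower (1.28 to 1.55). The intervals of the 3 relatives in wild type do not overlap for MRPS18B and either of the others. MRPS18B is the lowest of all members on this same ratio, and the difference between the relatives was not tested.

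MRPL50, a mitochondria-specific protein of the large subunit, had 27.2 CPM without and 13.4 with indole in wild type, and 27.9 without and 28.9 with indole in IDO1 cells. Again the other 3 libraries were close to each other, and the gene was 2.03-fold lower (1.75 to 2.35) with indole in wild type. MRPL24 and MRPL23 are proteins around the exit of the tunnel through which the new chain leaves. MRPL24 had 112 CPM without and 59.5 with indole in wild type, and 93.7 without and 103 with indole in IDO1 cells, and was 1.88-fold lower (1.75 to 2.02). MRPL23 had 122 CPM without and 72.1 with indole in wild type, and 119.5 without and 119 with indole in IDO1 cells, and was 1.69-fold lower (1.58 to 1.8). MRPL18, a protein of the central protuberance, had 198 CPM without and 116 with indole in wild type, and 165 without and 166 with indole in IDO1 cells, and was 1.71-fold lower (1.63 to 1.8). In all of these the lowest library was wild type with indole.

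At the other end, MRPL1, a protein of the mobile L1 stalk, was the member with the largest ratio upward. It had 11.2 CPM without and 13.5 with indole in wild type, and 12.8 without and 11.3 with indole in IDO1 cells. The 4 libraries spanned a narrow range, with the ratio in wild type at 1.2 (1.00 to 1.44). MRPS28, related to bacterial protein S1, had 15.6 CPM without and 16.3 with indole in wild type, and 22.7 without and 25.4 with indole in IDO1 cells. Its ratio in wild type was 1.05 (0.896 to 1.23), and both libraries of the IDO1 line were above both of wild type. MRPS35, a mitochondria-specific small-subunit protein, had 52.6 CPM without and 52.7 with indole in wild type, and 55.0 without and 61.6 with indole in IDO1 cells, with a ratio of 1.00 (0.919 to 1.09) in wild type. MRPS25 had a ratio of 0.976 (0.802 to 1.19) and the pseudogene transcript MRPS31P3 one of 0.994 (0.844 to 1.17). The log2 ratios of MRPS35, MRPS31P3 and MRPS25 turned sign under other settings, and library totals put them 0.13 to 0.17 above 0. MRPS31P3 may share reads with MRPS31, as may MRPL45P2 with MRPL45 and MRPL42P5 with MRPL42, so these 6 values are uncertain.

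The promoters of 4 coding members are shown because nearly all members were lower together and these lay at or near the ends. They are the 2 lowest and the 2 highest ratios in wild type among members matched to a RefSeq promoter. MRPS28, above MRPS35 in that order, was not matched. They are the 250 bases before the start of transcription, 5′ to 3′ on the gene's strand, from RefSeq's table for GRCh38.p14, a later build than the files' hg19. They lie at chr6:30617590-30617839 (plus strand), chr9:101398619-101398868 (minus strand), chr4:77862580-77862829 (plus strand) and chr12:27710582-27710831 (plus strand). Capitals mark a match to 1 of the 6 motifs searched.
MRPS18B promoter: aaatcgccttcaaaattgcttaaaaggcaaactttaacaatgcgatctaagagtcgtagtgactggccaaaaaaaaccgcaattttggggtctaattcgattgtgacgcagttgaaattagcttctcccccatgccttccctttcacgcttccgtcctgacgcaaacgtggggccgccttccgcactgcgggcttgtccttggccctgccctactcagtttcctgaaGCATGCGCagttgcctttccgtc
MRPL50 promoter: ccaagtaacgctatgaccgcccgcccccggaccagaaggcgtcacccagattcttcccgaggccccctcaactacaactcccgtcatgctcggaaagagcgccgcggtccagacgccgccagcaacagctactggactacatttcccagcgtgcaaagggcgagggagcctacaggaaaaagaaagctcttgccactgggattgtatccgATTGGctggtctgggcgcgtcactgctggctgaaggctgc
MRPL1 promoter: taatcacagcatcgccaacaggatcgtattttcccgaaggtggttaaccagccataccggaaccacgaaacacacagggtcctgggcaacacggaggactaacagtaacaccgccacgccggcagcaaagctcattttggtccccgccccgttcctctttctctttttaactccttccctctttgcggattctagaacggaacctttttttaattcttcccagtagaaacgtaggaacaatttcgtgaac
MRPS35 promoter: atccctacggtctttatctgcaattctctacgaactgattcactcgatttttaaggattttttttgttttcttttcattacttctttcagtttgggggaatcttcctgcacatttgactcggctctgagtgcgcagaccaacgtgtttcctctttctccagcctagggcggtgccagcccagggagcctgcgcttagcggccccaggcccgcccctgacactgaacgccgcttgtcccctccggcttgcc

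In MRPS18B the capitals are a match to NRF1, a factor known for driving nuclear genes of mitochondria, beginning 23 bases before the start. In MRPL50 they are a CCAAT box on the opposite strand, beginning 40 bases before it. Both genes also held a YY1 match in the 50 bases after the start, which are not shown. In MRPL1 and MRPS35 none of the 6 motifs was found in the 300 bases searched, which says only that these letters are not in this window. The same held for MRPL24, whose ratio in wild type was among the lowest.

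Over all members, 65 of 76 matched a RefSeq promoter by gene identifier, and each 300-base window was searched on both strands, each motif by itself, so matches of different motifs may overlap. The ETS core CCGGAAG was in 26 of 65 (40.0%), against 14.2% of 15843 protein-coding promoters. YY1 (AAGATGGCG) was in 13 (20.0%) against 2.74%, and NRF1 (GCATGCGC) in 6 (9.23%) against 4.26%. The E-box CACGTG was in 7 (10.8%) against 8.88%, the CCAAT box in 18 (27.7%) against 36.4% and the TATA box TATAAA in 3 (4.62%) against 9.63%. ETS factors, YY1 and NRF1 are known regulators of nuclear genes of mitochondria, and a match is only a description of letters. In wild type the median log2 ratio was -0.40 for the 24 compared members with an ETS match and -0.46 for the 37 without. It was -0.46 for the 13 with a YY1 match and -0.425 for the 48 without, and -0.57 for the 6 with an NRF1 match and -0.42 for the 55 without. For the CCAAT box it was -0.50 for the 18 with a match and -0.40 for the 43 without. The E-box gave -0.46 for 6 with and -0.43 for 55 without, and the TATA box -0.49 for 2 with and -0.43 for 59 without. These splits are descriptions, with no test.

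Wild type with indole was the library in which most members were lowest of all 4. Of 69 members with at least 10 CPM in some library, 58 were lowest there, where 42.7% of all 8845 such genes were. The member's level in wild type with indole lay below the other 3 by more than those 3 spanned in 44 of 69, against 25.1% of all genes. The median span of the other 3 libraries was 0.21 on the log2 scale. Lowest in wild type with DMF were 4 members (17.9% of all genes), in IDO1 cells with DMF 5 (17.5%) and in IDO1 cells with indole 2 (21.9%). The highest library was wild type with DMF for 33 members (22.4% of all genes) and IDO1 cells with indole for 26 (22.5%). It was IDO1 cells with DMF for 9 (19.9%) and wild type with indole for 1, MRPL1, where 35.2% of all genes were highest. Since this library stands apart from the rest and has no replicate, the lower values of wild type with indole rest on it alone.

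**Figure D2:**
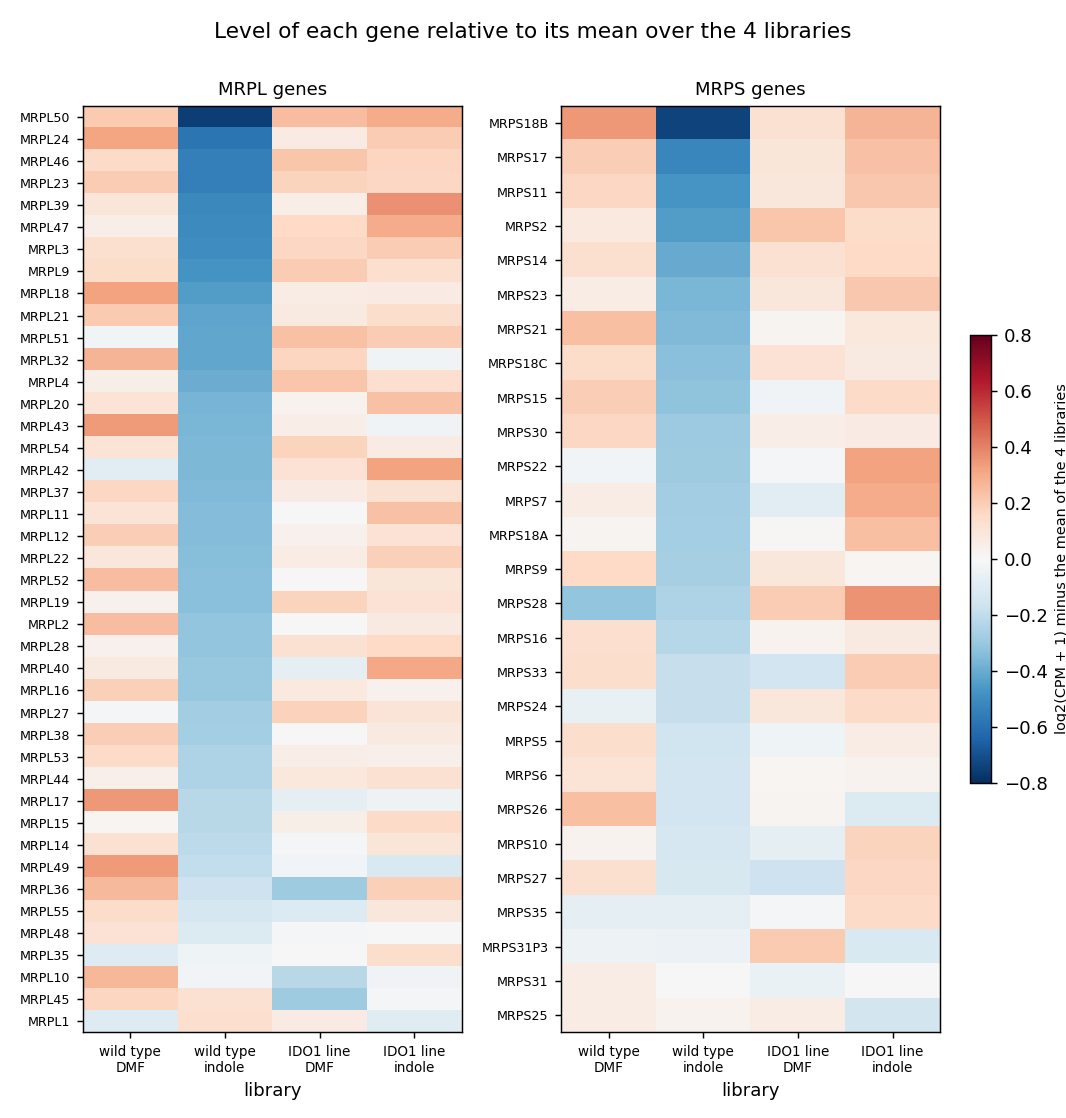
Level of each member with at least 10 CPM in some library, as log2 of CPM plus 1 minus its mean over the 4 libraries (columns), for MRPL (left) and MRPS (right). Blue is below the gene's mean and red above it, and 58 of 69 genes have their lowest value in the wild type indole column.

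The second comparison asked how the IDO1 line responded to indole. The members differed little and more often upward. Of 69 compared, 49 had a log2 ratio above 0 and 20 below, against 48.8% and 51.2% of all 8523 genes, and the median was 0.06, against -0.01 over all genes. MRPL had a median of 0.05 and MRPS of 0.09. At least 1.5-fold higher were 0 and at least 1.5-fold lower 0, where 0.434% and 0.282% of all genes were. Counting intervals were wholly above 1 for 24 members and wholly below 1 for 8, against 20.6% and 23.8% of all genes.

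The largest ratio was that of MRPL36, the small protein homologous to bacterial L36. It had 29.7 CPM without and 21.9 with indole in wild type, and 20.0 without and 28.3 with indole in IDO1 cells. The level in the IDO1 line with DMF was the lowest of the 4, and the gene was 1.41-fold higher (1.25 to 1.6) with indole in that line. MRPL40 had 42.4 CPM without and 32.5 with indole in wild type, and 38.2 without and 50.3 with indole in IDO1 cells, and was 1.32-fold higher (1.2 to 1.45). MRPS7, which binds the head of the small subunit, had 39.1 CPM without and 30.8 with indole in wild type, and 35.3 without and 46.3 with indole in IDO1 cells, and was 1.31-fold higher (1.19 to 1.45). MRPS33 and MRPS22 followed at 1.31 (1.08 to 1.58) and 1.27 (1.15 to 1.41). For MRPL40, MRPS7, MRPS33 and MRPS22, IDO1 cells with indole were the highest of the 4 libraries.

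On the lower side, MRPS31P3 was 1.27-fold lower (1.09 to 1.49). MRPL32, which a protease of the inner membrane must trim before it enters the ribosome, had 251 CPM without and 155 with indole in wild type, and 233 without and 204 with indole in IDO1 cells. It was 1.15-fold lower (1.1 to 1.19) with indole in the IDO1 line and 1.61-fold lower (1.54 to 1.69) in wild type, the same direction in both. MRPS26 was 1.1-fold lower (1.05 to 1.15). The ratios of MRPS25 and MRPL1, at 0.853 (0.697 to 1.04) and 0.889 (0.742 to 1.06), had intervals that held 1.

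Set side by side, the responses of the lines share no library. Over 69 members the median log2 ratio was -0.43 in wild type and 0.06 in the IDO1 line. The difference, IDO1 line minus wild type, had a median of 0.49 and was above 0 for 66 members, where 53.1% of all 8845 genes were above 0 with a median of 0.03. It reached 1 on the log2 scale for 3 members, MRPS18B with 1.23, MRPL24 with 1.04 and MRPL50 with 1.02. Scaled by library totals, the median was 0.32 and 62 of 69 were above 0, while the median of all genes moved to -0.14. Counting intervals lay wholly below 1 in wild type and wholly above 1 in the IDO1 line for 22 of 68 members compared in both, against 11.1% of 8357 genes. The opposite held for 0 members, against 8.56% of these genes. Without replicates the difference was not tested.

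**Figure D3:**
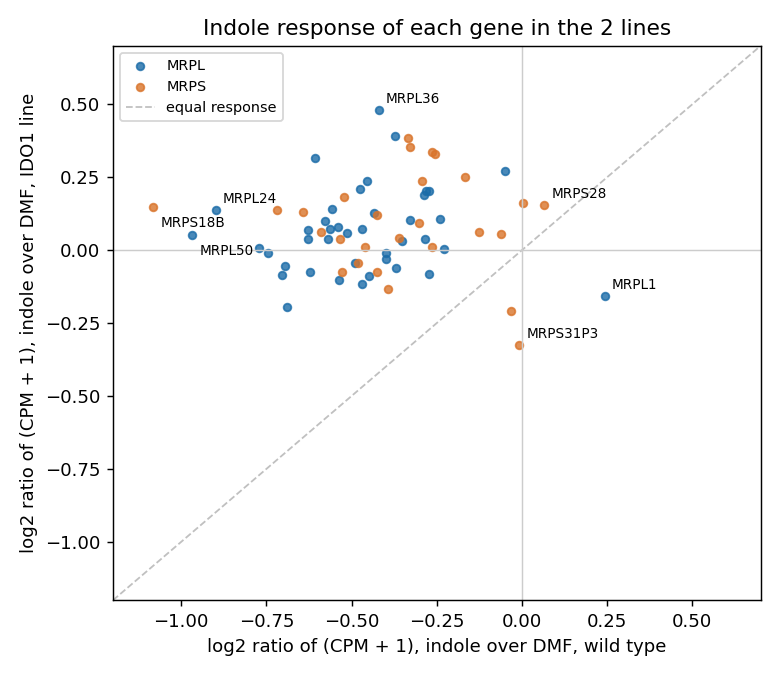
Indole response of each member compared in both lines, as log2 ratio of CPM plus 1, in wild type (horizontal) and in the IDO1 line (vertical), 1 point per gene. Of 68 points, all lie above the dashed line of equal response except MRPL1, MRPS25 and the pseudogene MRPS31P3, which lie below it.

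The comparison of lines in DMF asked what differed without indole. The median log2 ratio of the members, IDO1 line over wild type, was -0.10 against -0.01 over all genes. Of 68 compared, 46 were below 0 and 22 above, against 51.6% and 48.4% of all 8500 genes. At least 1.5-fold lower were 0 and at least 1.5-fold higher 0, where 1.26% and 0.894% of all genes were. Counting intervals were wholly below 1 for 32 members and wholly above 1 for 10, against 27.8% and 24.4% of all genes. With library totals the median of the members was -0.00198 and that of all genes 0.09, and 36 members were below 0. At least 1.5-fold higher was then 1 member, where 1.65% of all genes were. Relative to the median of all genes, the members lay at -0.09 with TMM and with totals. Since the members' own median depended on the scaling, no direction is given for the group.

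Single members stood out from the median of the members. MRPL10 carries the stalk that recruits translation factors. It had 211 CPM without and 172 with indole in wild type, and 149.9 without and 171 with indole in IDO1 cells, and was 1.4-fold lower (1.34 to 1.47) in the IDO1 line in DMF. MRPL36 was 1.48-fold lower (1.31 to 1.67). MRPL45, which lines the exit site next to the inner membrane, had 36.5 CPM without and 35.2 with indole in wild type, and 26.4 without and 32.1 with indole in IDO1 cells, and was 1.38-fold lower (1.24 to 1.54), with the reservation about its pseudogene. MRPL17 and MRPL49 were 1.35-fold lower (1.25 to 1.45) and 1.29-fold lower (1.22 to 1.37). On the higher side, MRPS28 was 1.46-fold higher (1.27 to 1.68), and MRPL51, MRPS31P3, MRPL42 and MRPL27 had ratios of 1.19 (1.13 to 1.27), 1.2 (1.03 to 1.39), 1.16 (1.03 to 1.3) and 1.15 (1.05 to 1.25).

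With indole in both, nearly all members were higher in IDO1 cells, a comparison that uses the same wild type indole library as the first. The median log2 ratio was 0.42 over 69 members, against 0.03 over all genes, and 64 were above 0 and 5 below, against 52.8% and 47.2% of all 8765 genes. At least 1.5-fold higher were 18 and lower 0, where 11.6% and 9.75% of all genes were. Counting intervals were wholly above 1 for 59 members and wholly below 1 for 0, against 40.4% and 33.7% of all genes. With library totals 11 were higher, and 12.5% of all genes were lower and 8.81% higher. At least 2-fold higher were 2, against 2.28% of all genes, namely MRPL50 at 2.15 (1.86 to 2.51) and MRPS18B at 2.02 (1.9 to 2.16).

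MRPL39 and MRPL47, both near the exit of the tunnel, had large ratios too. MRPL39 had 24.1 CPM without and 15.4 with indole in wild type, and 23.4 without and 29.3 with indole in IDO1 cells, and was 1.9-fold higher (1.65 to 2.19). MRPL47 had 28.3 CPM without and 18.9 with indole in wild type, and 30.5 without and 33.8 with indole in IDO1 cells, and was 1.79-fold higher (1.57 to 2.04). MRPL24 was 1.73-fold higher (1.61 to 1.86). The members with the lowest ratios were MRPL1 at 0.841 (0.699 to 1.01), MRPS25 at 0.873 (0.708 to 1.08), MRPL45 at 0.912 (0.816 to 1.02), MRPS31P3 at 0.947 (0.799 to 1.12) and MRPL10 at 0.992 (0.945 to 1.04). All 5 of these intervals held 1.

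The members with the most reads gave the tightest ratios. MRPS30, a large-subunit protein despite its name, had 363 CPM without and 264 with indole in wild type, and 336 without and 338 with indole in IDO1 cells, and was 1.38-fold lower (1.33 to 1.43) with indole in wild type. MRPL3, which reaches toward the peptidyl transferase centre, had 329 CPM without and 213 with indole in wild type, and 338 without and 346 with indole in IDO1 cells, and was 1.55-fold lower (1.49 to 1.61). MRPL37, a mitochondria-specific protein, had 273 CPM without and 191 with indole in wild type, and 254 without and 265 with indole in IDO1 cells, and was 1.43-fold lower (1.37 to 1.49). In the IDO1 line their ratios of indole to DMF were 1.01 (0.975 to 1.04), 1.03 (0.993 to 1.06) and 1.04 (1.00 to 1.08).

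Additive fits over all 4 libraries asked which members moved with indole in both lines, or with the line in both treatments. They leave 1 residual degree of freedom, which holds the interaction, so a gene that responds in 1 line only tests as noisy. By edgeR's quasi-likelihood test with Benjamini-Hochberg adjustment, 0 of 76 members passed for indole, where 0% of 13122 genes did, and 0 had an unadjusted p under 0.05, against 3.41%. The member with the smallest p was MRPL32, with a log2 fold change of -0.44 (SE 0.238, edgeR adjusted p = 1.00), lower in both lines. For the line, 0 of 76 passed, where 2.45% of all genes did, and 2 had an unadjusted p under 0.05, against 9.99%. These were MRPS28, with a log2 fold change of 0.58 (SE 0.238, edgeR adjusted p = 0.337), and MRPL50, with 0.55 (SE 0.256, edgeR adjusted p = 0.455). The counting interval of the IDO1 line over wild type lay wholly above 1 under both treatments for MRPS28, but with indole only for MRPL50. DESeq2 also gave 0 members for either factor, with 0 at an unadjusted p under 0.05. The spread behind these p-values is what the additive model leaves over, not a spread between replicates. No label states that cultures were separate.

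The proteins of the mitochondrial ribosome that bear other names had lower levels in wild type with indole as well. Of 7, CHCHD1 was under 10 CPM, and the other 6 had a median log2 ratio of -0.50, all below 0. ICT1, a peptidyl-tRNA hydrolase built into the large subunit, was at 125 CPM in wild type with DMF and 75.5 with indole, 1.65-fold lower (1.55 to 1.76). GADD45GIP1 was 1.47-fold lower (1.42 to 1.53) and AURKAIP1 1.42-fold lower (1.36 to 1.49). DAP3, a GTP-binding protein of the small subunit, was 1.41-fold lower (1.28 to 1.56), MRP63 1.42-fold (1.23 to 1.64) and PTCD3, a pentatricopeptide protein, 1.35-fold (1.25 to 1.47). In the IDO1 line these 6 had a median of -0.03.

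Of 14 translation factors of mitochondria, 13 were compared in wild type, and 11 were below 0 with a median log2 ratio of -0.23. Over all genes 53.8% were below 0 and 9.72% at least 1.5-fold lower, which also holds beside the counts of the next lists. At least 1.5-fold lower was 1, TUFM, the elongation factor that brings the tRNA, with 314 CPM without and 177 with indole in wild type, and 316 without and 325 with indole in IDO1 cells. Its ratio in wild type was 1.77-fold lower (1.7 to 1.85). Its exchange factor TSFM was 1.45-fold lower (1.28 to 1.65), whereas GUF1 and TACO1 had ratios of 1.21 (1.01 to 1.44) and 1.02 (0.874 to 1.18). Of 27 assembly and rRNA modification factors, 24 were compared, 20 were below 0 and 4 at least 1.5-fold lower, with a median of -0.27. METTL17, an assembly factor of the small subunit, was 1.78-fold lower (1.60 to 1.98) and the rRNA methyltransferase MRM1 1.71-fold lower (1.49 to 1.96), and MTG1 and METTL15 had ratios of 1.18 (1.06 to 1.31) and 1.17 (1.03 to 1.33). Of 22 genes of mitochondrial transcription and RNA processing, 18 were compared, 16 were below 0 and 3 at least 1.5-fold lower, with a median of -0.27. TRMT10C, a subunit of mitochondrial RNase P, was 1.93-fold lower (1.74 to 2.14) and SLIRP, which stabilises mitochondrial messages, 1.75-fold lower (1.65 to 1.86). SLIRP's partner LRPPRC and the RNA-binding FASTKD5 each had a ratio of 1.06 (0.963 to 1.16 and 0.920 to 1.21). In the additive fit for indole, 0 of the 7, 14, 27 and 22 genes of these lists passed.

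For scale, 73 nuclear-encoded respiratory chain subunits had a median log2 ratio of -0.54 in wild type, and 74 cytosolic ribosomal proteins one of -0.21. The members lay between these at -0.43, and no test of the differences between lists was made.

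**Figure D4:**
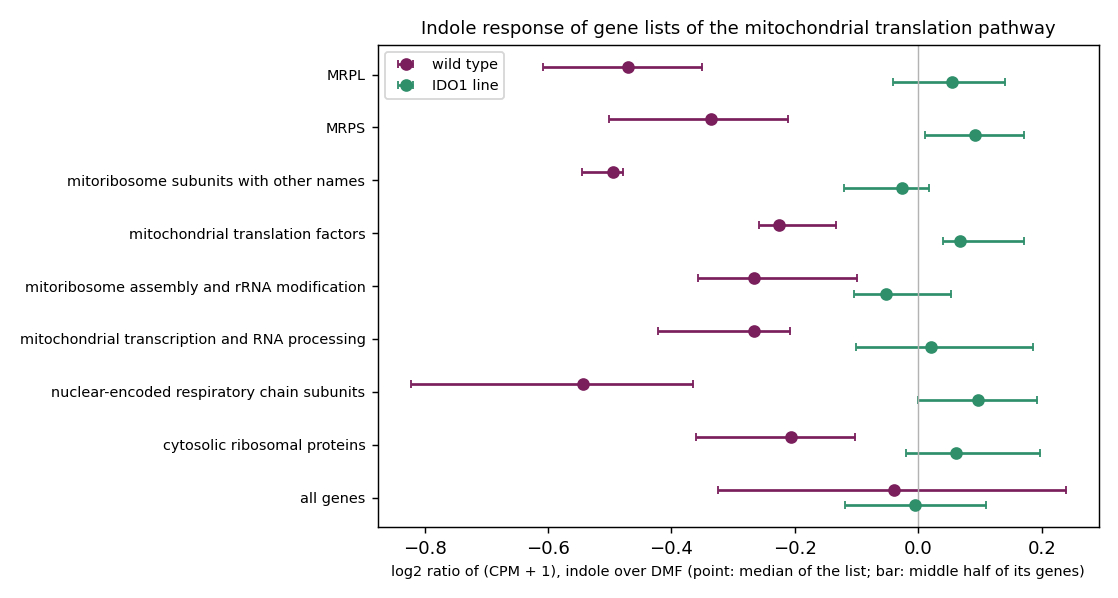
Median log2 ratio of CPM plus 1, indole over DMF, of each gene list (points), with bars from its lower to its upper quartile, in wild type and in the IDO1 line. In wild type every list shown lies below the median of all genes at -0.04. The ends are -0.54 for respiratory chain subunits and -0.21 for cytosolic ribosomal proteins, which are shown for scale. In the IDO1 line medians lie between -0.05 and 0.10.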

How the data were processed

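The authors made amplicon libraries from total RNA with a whole-transcriptome kit for Ion sequencers, per the labels' protocols, and deposited raw counts of reads per amplicon target, 1 column per sample. Per the file headers these are not normalized, and all are whole numbers. The submitters' processing notes name the build hg19. Not given in the sources used here are the aligner, the counting tool and any use of strand. The design text describes 2 replicates per condition, yet a file holds 1 column of counts, so a group was treated as 1 library.

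Counts were scaled by TMM over the 4 libraries (edgeR 4.0.16, R 4.3.3), and log2 ratios used CPM plus a pseudocount of 1 for genes with at least 10 CPM in 1 of the 2 libraries, which understates low genes. Folds are CPM ratios without a pseudocount, and counting error sets their precision. The floor of 3 reads equals 0.131 to 0.157 CPM. Additive fits used edgeR's quasi-likelihood test on raw counts of line and treatment after filterByExpr, at an adjusted p of 0.05. Their SE was back-calculated from the F statistic. DESeq2 1.42.0 was the alternative tool. The code for fits and ratios was run on simulated counts whose indole effects were equal in both lines. That run does not show how the fits behave for a gene that responds in 1 line only.

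The members, gene lists, motifs and fold marks were chosen with earlier results of these data known. Genes were named by rule: the 5 highest and 5 lowest members of each comparison, members passing a fit, the 3 with most and fewest reads, the S18 relatives, MRPS30, MRPS36 and pseudogenes, all subunits with other names, and the 2 extremes each way of other lists. MRPL30, MRPL33 and MRPL34 fall outside it and were named, after their values were seen, to account for every member under the minimum. Alternatives were other scalings, pseudocounts, minimums and removal of a trend with abundance.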

Additional observations from a re-analysis of the deposited data

Results flagged for a closer look

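The members as a group were lower with indole in wild type and slightly higher in the IDO1 line. The median difference of the log2 responses, IDO1 line minus wild type, was 0.49 over all members, 0.54 over MRPL and 0.45 over MRPS. With library totals in place of TMM these medians were 0.32, 0.37 and 0.28. The difference was not tested, since each group is 1 library, and it includes the wild type indole library, which stands apart. The doubt about the cells labelled as the IDO1 line applies here too.

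Counting intervals lay wholly below 1 in wild type and wholly above 1 in the IDO1 line for 22 of 68 members, against 11.1% of all genes compared in both. The pattern was not particular to the members, as 37 of 73 respiratory chain subunits and 35 of 73 cytosolic ribosomal proteins had it. It was found for 1 of 6 subunits with other names and 3 of 13 translation factors. It also held for 3 of 23 assembly factors and 3 of 18 genes of transcription and RNA processing. Because intervals narrow with more reads, these counts depend on the level of the genes as well as on the size of their response. Of the 22 members, the naming rule picked 12, partly for their extreme ratios. For the large subunit the differences were 0.48 for MRPL10, 1.04 for MRPL24, 0.90 for MRPL36, 0.57 for MRPL37, 0.92 for MRPL39, 0.76 for MRPL40, 0.48 for MRPL42 and 0.53 for MRPS18A. For the small subunit they were 0.72 for MRPS7, 1.23 for MRPS18B, 0.60 for MRPS22 and 0.68 for MRPS33. None of these differences was tested. For MRPL36, IDO1 cells with DMF gave the lowest level of the 4 libraries, and its response in that line rests on it.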

How the results depend on the processing

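Over 11 results and 76 alternatives, 67 stayed within the members' counting error or within 1.5 times the count, and 9 moved. In wild type the median log2 ratio of -0.43 became -0.26 with library totals and -0.26 with totals without the 10 most abundant genes, and the 15 members at least 1.5-fold lower became 4 under both. These settings also moved the median of all genes upward, to 0.14 with library totals. The share of all genes at least 1.5-fold lower fell with them, from 9.72% to 4.86% and 4.88%. Removing the trend with abundance gave -0.35 and 11 members, where 7.8% of all genes were at least 1.5-fold lower. In DMF the count of 0 members 1.5-fold higher for IDO1 cells became 1 with either kind of total, where 1.65% and 1.39% of all genes were. With indole the count of 18 higher became 11 with either kind of total, where 8.81% and 8.31% of all genes were higher. It was 10 of 40 members with a minimum of 50 CPM, which compares fewer genes, and 14.2% of all genes compared were higher there. The additive fits gave 0 members under every alternative. The median difference between the responses of the lines, 0.49, became 0.32 with library totals. None of the medians turned its sign under these alternatives. No paired analysis was possible because each group has 1 library and the labels carry no replicate numbers. Leaving out the wild type indole library leaves no indole response in wild type, and the 2 comparisons without it had 0 members at least 1.5-fold higher or lower with TMM. Depth limits members under 10 CPM, whose intervals are wide.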

Other observations

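A total of 7 members were under 10 CPM in every library and entered no pairwise comparison. MRPL13 had 3.29 CPM without and 2.38 with indole in wild type, and 4.43 without and 5.02 with indole in IDO1 cells, and its ratio of the IDO1 line to wild type with indole was 2.11 (1.47 to 3.07). MRPL34 had 9.87 CPM without and 5.68 with indole in wild type, and 7.01 without and 7.99 with indole in IDO1 cells, and was 1.74-fold lower (1.37 to 2.21) with indole in wild type. MRPL33 was 1.32-fold lower (1.05 to 1.65) there, and MRPL30 had a ratio of 0.857 (0.658 to 1.11). MRPS36, since reassigned from the ribosome to the alpha-ketoglutarate dehydrogenase complex, had 5.88 CPM without and 6.56 with indole in wild type, and 5.17 without and 5.59 with indole in IDO1 cells, and its ratio with indole in wild type was 1.12 (0.865 to 1.44). The pseudogene transcripts MRPL42P5 and MRPL45P2 had 8 to 18 and 16 to 32 reads per library.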
